A study of Mus musculus with 2 samples.

Results

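The nuclear genes of the mitochondrial respiratory chain were followed in RNA that had been purified together with chromatin by enChIP-RNA-Seq. Members were taken by gene symbol: names starting with Nduf for complex I, the symbols Sdha to Sdhd for complex II, Uqcr for complex III, Cox4 to Cox8 for complex IV and Atp5 for complex V, the ATP synthase. The rule uses symbols alone, and no read value. It gave 90 genes among the 24115 gene symbols of the count tables, of which 43 were placed in complex I, 4 in complex II, 8 in complex III, 18 in complex IV and 17 in complex V. Assembly factors that carry a member's name, such as Ndufaf7, were counted with their complex. Ndufa4 and Ndufa4l2 were counted with complex IV.

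The data are 2 libraries from Ba/F3, a mouse hematopoietic cell line, labelled C3H by strain. One population stably expressed 3xFN-Tel-TAL, a FLAG-tagged TAL protein designed to bind telomeric repeats. The control population stably expressed 3xFNLDD, a FLAG-tagged LexA protein. Both were fixed with formaldehyde, their chromatin was sonicated and precipitated with an anti-FLAG M2 antibody, and the RNA in the isolates was sequenced. The comparison of the libraries asks which RNAs were more abundant in isolates made through the telomere-binding protein than in those of the control. Each condition has 1 library, so no difference has a replicate check and no p-value is given. The values describe RNA in an immunoprecipitate, in which a transcript that is less expressed and a transcript that is less often captured cannot be told apart. Of the 8 hematopoietic markers checked, 8 had 20 or more reads over both libraries. Of 8 listed markers of other cell types, only Hbb-b1 reached that level, and the summed reads of the 8 were 100 in 3xFNLDD against 97 in 3xFN-Tel-TAL. This is 13.9 against 9.92 RPM, a log2 ratio of -0.48 (95% interval -0.90 to -0.066), opposite in sign to the pooled ratio of the members by library totals. Hbb-b1 itself had 49 and 73 reads, at a log2 ratio of 0.14 (-0.41 to 0.69). The negative pooled value thus came from the other markers, each with too few reads for a ratio, and its part in the results was not tested.

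The respiratory chain sits in the inner mitochondrial membrane. Complexes I and II pass electrons from NADH and succinate to ubiquinone, complex III passes them on to cytochrome c, and complex IV passes them to oxygen. Complexes I, III and IV move protons across the membrane, and complex V uses the returning protons to make ATP. All subunits of complex II are encoded in the nucleus, whereas the other complexes combine nuclear subunits with a few that are encoded in the mitochondrial genome. The nuclear transcripts are translated outside the mitochondrion, and their proteins are imported.

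Cox7c, the member with the highest ratio, has near-identical copies in the genome. The coding sequence of the Cox7c transcript ENSMUST00000131011 (chr13:86184421-86186509, reverse strand, NCBIM37) and that of the copy Gm12338 (ENSMUST00000074576, chr14:39193652-39194039, forward strand) are both 192 nt long. They differ at 2 positions, which are shown in capitals, and are 99% identical.
Cox7c: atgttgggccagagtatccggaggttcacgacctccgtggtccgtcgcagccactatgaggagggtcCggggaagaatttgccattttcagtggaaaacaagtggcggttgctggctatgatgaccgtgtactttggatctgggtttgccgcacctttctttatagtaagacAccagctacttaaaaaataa
Gm12338: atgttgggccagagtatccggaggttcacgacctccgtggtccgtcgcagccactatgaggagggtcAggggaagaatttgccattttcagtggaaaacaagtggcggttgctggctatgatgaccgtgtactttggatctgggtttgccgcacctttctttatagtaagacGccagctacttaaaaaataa
The reads that were counted for Cox7c and its copies are given with complex IV.

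Respiratory chain transcripts were a small part of both isolates. Their reads summed to 1948 in 3xFNLDD, 0.027% of 7206183 reads, and to 3286 in 3xFN-Tel-TAL, 0.0336% of 9774844 reads. Most reads of both libraries fell on 11 abundant RNAs, which held 84.8% and 81.1% of the reads. As RPM, the reads scaled to a library of 1e+06 reads, the members together reached 270 RPM in 3xFNLDD against 336 RPM in 3xFN-Tel-TAL. The log2 ratio of 3xFN-Tel-TAL to 3xFNLDD was 0.31, with an exact (Clopper-Pearson) 95% interval of 0.23 to 0.40. Such intervals cover counting error only, since amplified reads carry no molecular identifiers and need not be independent molecules. They compare these libraries, not the conditions.

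A ratio was computed only for genes with 20 or more reads summed over both libraries. This held for 59 of the 90 members, or 65.6%, compared with 51.9% of all gene symbols. The other 31 members are described by their reads alone. The median member had 32 reads in both libraries together, 5 members had at least 200 reads and 12 had fewer than 10. Just at the minimum were Ndufa12, with 9 and 11 reads, and Ndufb4, with 12 and 8 reads. Just under it were Ndufa6 with 8 and 11 reads, Ndufs6 with 10 and 9, and Ndufv2 with 7 and 12. Reads are given for 3xFNLDD first and for 3xFN-Tel-TAL second throughout.

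No member lacked reads in both libraries. Without reads in 3xFNLDD were 4 members, of which Ndufa8 had 9 reads in the other library, Ndufa3 and Ndufs5 had 8 each, and Ndufa4 had 5. Without reads in 3xFN-Tel-TAL were 3 members: Cox8b had 5 reads in the control, and Ndufb6 and Cox6a2 had 2 each. At these depths a count of 0 allows a level of up to 0.416 RPM in the control and 0.307 RPM in the telomere isolate, 3 reads in either case. All 7 genes are thus known only to be low in the library without reads.

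Of the 59 members, 24 had an RPM ratio above 1.4, which is 40.7%. The study used a cutoff of 1.4 for non-coding RNAs and computed it from read counts. Here the cutoff was applied to RPM, which accounts for the library totals. Among all 12515 gene symbols with at least 20 reads the share was 41.1%, and among the 11865 symbols in the members' read range it was 41.3%. A ratio below 1/1.4 was found for 6 members, or 10.2%, against 11.5% and 11.6% of the same backgrounds. The remaining 29 members lay between these limits. Both shares of the respiratory chain genes were therefore near those of all genes. Their median log2 ratio was 0.26, below the median of 0.37 over all gene symbols, and single members ranged from -1.11 to 3.15.

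The 95% interval lay wholly above a ratio of 1 for 13 members, against 34.3% of all gene symbols, and wholly below it for 2 members, Ndufa10 and Atp5d, against 7.29%. These shares depend on depth: the members with a ratio had a median of 54 reads, and all gene symbols with a ratio a median of 93. The lower bound was above 1.4-fold for 3 of the 59 members, Sdhd, Cox7a2l and Cox7c, against 1260 of the 12515 gene symbols.

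**Figure D1:**
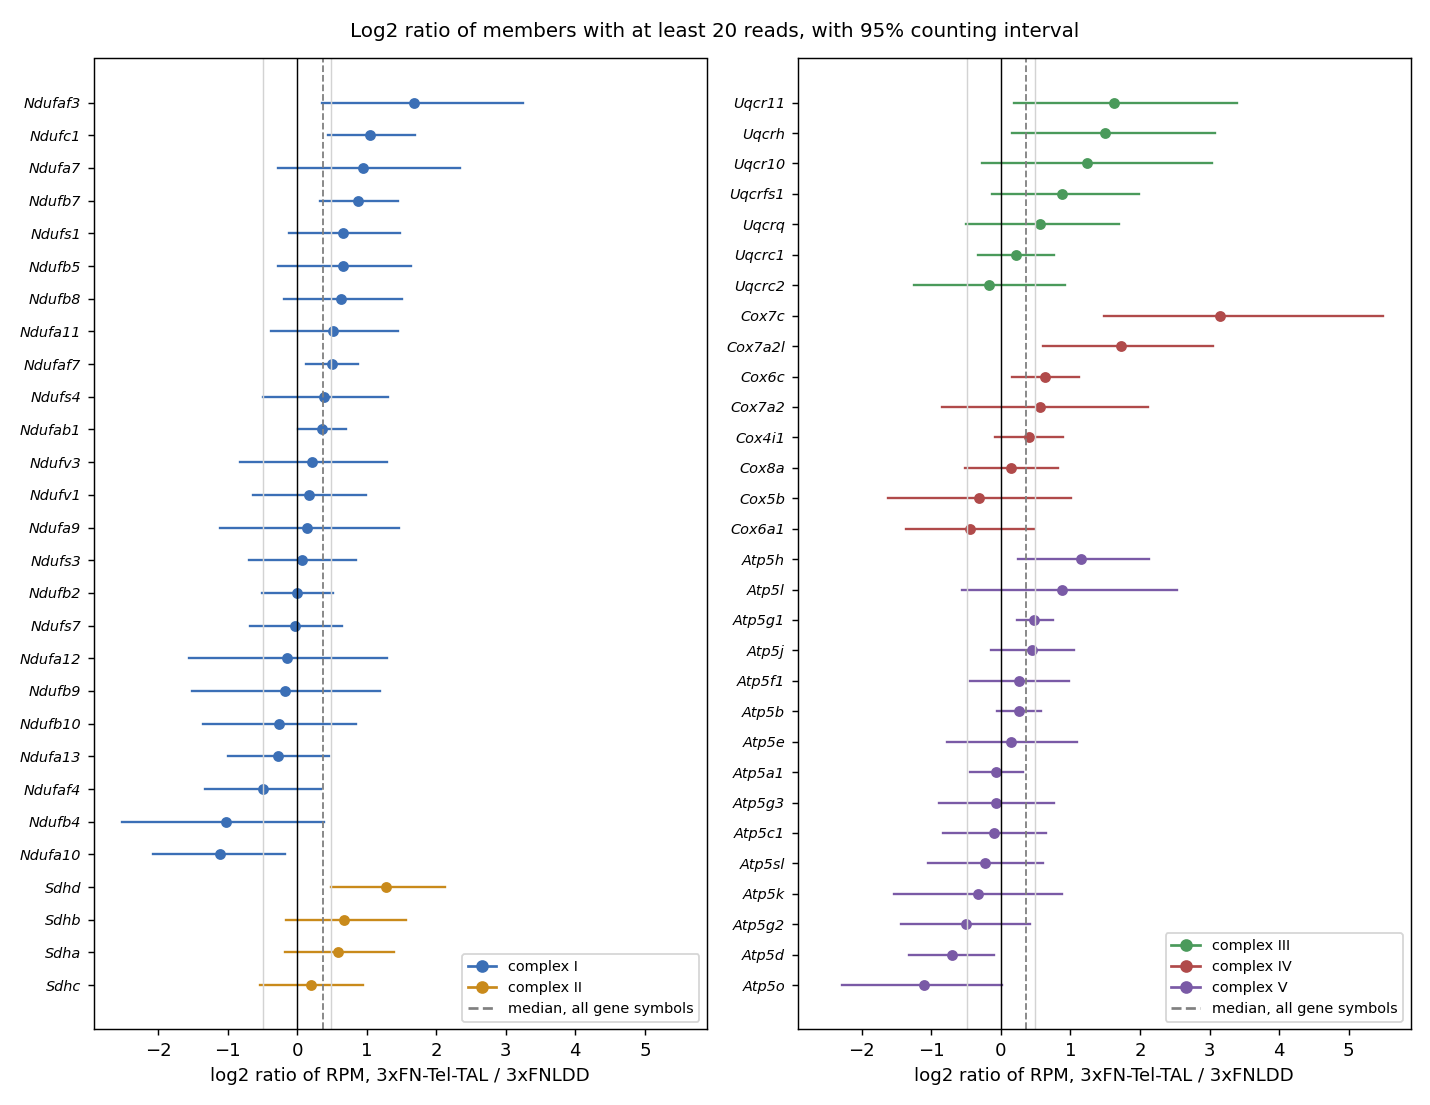
Log2 of the RPM ratio, 3xFN-Tel-TAL over 3xFNLDD (horizontal axis) for the members with at least 20 reads, ordered by ratio within each complex, with 1 of the 59 not drawn. Points are the ratios with library totals as the scale, horizontal lines their exact 95% counting intervals, the dashed line the median of all gene symbols (0.37) and the pale lines 1.4-fold in either direction. Most intervals cross 0, Cox7c lies farthest to the right, Ndufa10 and Atp5d lie wholly to the left of 0, and TMM scaling would move every point to the left by the same amount.

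The direction for the group as a whole depended on the scale. With the trimmed mean of M values (TMM) of edgeR, every log2 ratio shifted by -0.33, the pooled log2 ratio of the members was -0.012 (95% interval -0.094 to 0.069), and their median was -0.07 beside 0.04 for all gene symbols. The members then split into 13 above 1.4-fold and 14 below 1/1.4-fold, against 22.1% and 20.8% of all gene symbols. With DESeq2 size factors the shift was -0.26 and the pooled log2 ratio was 0.056, with an interval of -0.026 to 0.14 that included 0. The members' median was then -0.0022. Under each of these scales the members' median lay below that of all gene symbols, since a change of scale moves both alike. With TMM, 5 members kept an interval wholly above a ratio of 1: Ndufc1, Ndufaf3, Sdhd, Cox7a2l and Cox7c. Wholly below 1 were then 4 members in place of 2, with Atp5a1 and Atp5o added to Ndufa10 and Atp5d. The shares of all gene symbols with such intervals under TMM are not given here.

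**Figure D2:**
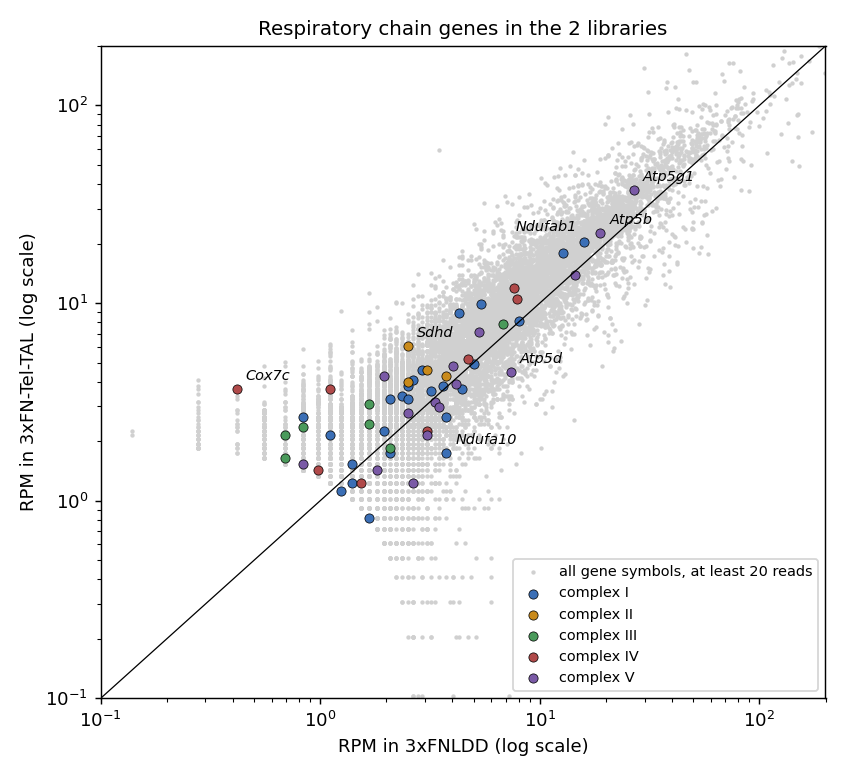
Level of each member as RPM in 3xFNLDD (horizontal axis) and 3xFN-Tel-TAL (vertical axis), both on log scales, with complexes in colour and all gene symbols with at least 20 reads in grey. The black line marks equal RPM, and genes without reads in a library or outside the plotted range are not drawn. Atp5g1, at 26.8 and 37.4 RPM, is the member with the highest RPM, and the members lie within the cloud of other genes.

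Complex I, the NADH dehydrogenase, had 780 reads in 3xFNLDD against 1310 in 3xFN-Tel-TAL over its 43 genes. The pooled log2 ratio was 0.31 (95% interval 0.18 to 0.44) by library totals and -0.019 by TMM. Of its 25 genes with a ratio, 10 (40%) were above 1.4-fold and 3 (12%) below 1/1.4-fold, against 41.1% and 11.5% of all gene symbols. The median log2 ratio of the 25 genes was 0.21. The genes with the most reads were Ndufab1, which encodes the mitochondrial acyl carrier protein, with 115 and 200 reads, and the assembly factor gene Ndufaf7, with 92 and 176. The log2 ratio was 0.36 (95% interval 0.0205 to 0.70) for Ndufab1 and 0.50 (0.12 to 0.88) for Ndufaf7. Both intervals include the median of all gene symbols.

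The core subunits of complex I carry the flavin and the iron-sulfur clusters, and 7 of them are encoded in the nucleus. They had 135 and 220 reads and a pooled log2 ratio of 0.26, whose interval of -0.051 to 0.58 included 0. Ndufs7, which holds an iron-sulfur cluster next to the ubiquinone site, had 36 and 48 reads, 5 and 4.91 RPM. Ndufs1, the largest of the iron-sulfur subunits, had 21 and 45 reads and a log2 ratio of 0.66 (-0.12 to 1.48). Ndufs3 and Ndufv1 lay between these, at log2 ratios of 0.07 and 0.17, and the intervals of all 4 subunits named here included 0.

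Accessory subunits surround this core, and 29 members were counted among them, with 504 and 844 reads in all. Pooled, they were at a log2 ratio of 0.30 (0.14 to 0.47), or at -0.023 by TMM. Ndufc1 stood highest among them, with 31 reads or 4.3 RPM in 3xFNLDD against 87 reads or 8.9 RPM in 3xFN-Tel-TAL, which gave a log2 ratio of 1.05 (0.44 to 1.69). Ndufb7 followed Ndufb2 in reads, with 39 and 97, and had a log2 ratio of 0.87 (0.32 to 1.45). Ndufb2 itself had 58 and 79 reads, which is 8.05 and 8.08 RPM, almost the same level in both isolates.

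At the other end of complex I were Ndufa10 and Ndufb4, both accessory subunits. Ndufa10 had 27 reads or 3.75 RPM in 3xFNLDD against 17 reads or 1.74 RPM in 3xFN-Tel-TAL, which gave a log2 ratio of -1.11 (-2.07 to -0.18). Its gene lies on the reverse strand at chr1:94335587-94370437 (NCBIM37). It was the lowest ratio of all members. TMM lowers every ratio, so the interval could only stay below 0 with it. Ndufb4 had 12 and 8 reads and a log2 ratio of -1.02, but its interval of -2.52 to 0.39 included 0. Ndufa13, also known as GRIM-19, was lower by RPM as well, with 4.44 RPM in 3xFNLDD against 3.68 in 3xFN-Tel-TAL, and its interval of -0.998 to 0.46 included 0.

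Assembly factors are not part of the finished complex. Of the 7 assembly factor genes named Ndufaf, 3 had a ratio. Ndufaf3 had 6 and 26 reads and a log2 ratio of 1.68 (0.36 to 3.25), Ndufaf7 was at 0.50, and Ndufaf4, with 27 and 26 reads, was at -0.49 (-1.33 to 0.34). The 3 genes thus did not share a direction. Ndufaf1, Ndufaf2, Ndufaf5 and Ndufaf6 had between 3 and 16 reads in both libraries together.

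Complex II, succinate dehydrogenase, links the respiratory chain to the TCA cycle. Its 4 genes had 85 and 185 reads, a pooled log2 ratio of 0.68 (0.30 to 1.07), and 0.36 (-0.023 to 0.74) with TMM. Sdhd, 1 of the membrane anchors, had 18 reads or 2.5 RPM in 3xFNLDD against 59 reads or 6.04 RPM in 3xFN-Tel-TAL, which gave a log2 ratio of 1.27 (0.49 to 2.12). Its gene lies on the reverse strand at chr9:50404443-50411954 (NCBIM37). The other anchor, Sdhc, had 27 and 42 reads and a log2 ratio of 0.20 (-0.53 to 0.95). Sdha, the flavoprotein, was at 0.59 (-0.17 to 1.399) with 22 and 45 reads. Sdhb, the iron-sulfur subunit, was at 0.68 (-0.16 to 1.57) with 18 and 39 reads. Its protein-coding transcript had 14 and 10 reads, at -0.93 (-2.26 to 0.35). Its transcript ENSMUST00000125780, of the processed-transcript type, had 4 and 21 reads, at 1.95 (0.39 to 3.955), and these intervals do not overlap. Summed over transcripts, all 4 genes had a log2 ratio above 0 by library totals, but Sdhc was at -0.13 with TMM. Above 1.4-fold were 3 genes, or 75%, against 41.1% of all gene symbols. Without Sdhd the pooled log2 ratio of the other 3 genes was 0.47 (0.033 to 0.92).

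Complex III, the cytochrome bc1 complex, had 107 and 216 reads over 8 genes and a pooled log2 ratio of 0.57 (0.23 to 0.92). With TMM it was 0.25, with an interval of -0.094 to 0.59. Uqcrc1, a large core protein that faces the matrix, held the most reads, 49 and 77, at a log2 ratio of 0.21 (-0.32 to 0.76). Its partner Uqcrc2 had 15 and 18 reads and a log2 ratio of -0.18 (-1.25 to 0.92). Uqcrfs1, the Rieske iron-sulfur protein that passes electrons on, had 12 and 30 reads and a log2 ratio of 0.88 (-0.13 to 1.98).

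The small subunits of complex III had few reads. Uqcr11 had 5 and 21 reads and a log2 ratio of 1.63 (0.18 to 3.39). Uqcrh, the hinge protein that helps cytochrome c to bind, had 6 and 23 reads and was at 1.499 (0.16 to 3.08). Uqcr10 had 5 and 16 reads, at 1.24 (-0.28 to 3.04), and Uqcrq 12 and 24 reads, at 0.56 (-0.50 to 1.69). Uqcrb, with 3 and 7 reads, had too few for a ratio. Of the 7 genes with a ratio, 5 (71.4%) were above 1.4-fold and none was below 1/1.4-fold, against 41.1% and 11.5% of all gene symbols. With TMM, 4 were above and 1 below, and the intervals of Uqcr11 and Uqcrh then included 0.

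Complex IV, cytochrome c oxidase, had 239 and 449 reads over 18 genes and a pooled log2 ratio of 0.47 (0.24 to 0.70). With TMM it was 0.14 (-0.087 to 0.38). Only 8 of the 18 genes had enough reads for a ratio. Of these 8, 4 (50%) were above 1.4-fold, against 41.1% of all gene symbols. Cox6c, a small accessory subunit, had the most reads of the complex, 55 in 3xFNLDD (7.63 RPM) and 116 in 3xFN-Tel-TAL (11.9 RPM), a log2 ratio of 0.64 (0.16 to 1.13). Cox4i1, the common isoform of the largest nuclear subunit, had 57 and 102 reads and a log2 ratio of 0.40 (-0.082 to 0.89).

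Cox7c and Cox7a2l stood apart from the rest of complex IV. Cox7c, a small subunit, had 3 reads or 0.416 RPM in 3xFNLDD against 36 reads or 3.68 RPM in 3xFN-Tel-TAL, which gave a log2 ratio of 3.15 with a wide interval of 1.48 to 5.49. Its most read transcript, ENSMUST00000078764, had 0 and 16 reads. The 2 listed copies of Cox7c, Gm12338 and Gm10012, had 9 and 14 reads together. Summed with them, Cox7c had 12 and 50 reads and a log2 ratio of 1.62 (0.69 to 2.66). Cox7a2l encodes a factor that joins complexes III and IV into supercomplexes. From its gene on the reverse strand at chr17:83901259-83913673 (NCBIM37) it had 8 and 36 reads, 1.11 and 3.68 RPM, and a log2 ratio of 1.73 (0.60 to 3.05).

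Several complex IV subunits exist as pairs of isoforms that are used in different tissues, and in the pairs that follow more reads fell on the widely expressed form. Cox6a1 had 22 and 22 reads, a log2 ratio of -0.44 (-1.36 to 0.48), whereas the heart and muscle form Cox6a2 had 2 and 0. Cox4i2, known from the lung, had 2 and 1 reads beside the 57 and 102 of Cox4i1. Cox8a had 34 and 51 reads, at a log2 ratio of 0.15, and Cox8b had 5 and 0. Cox7a2 had 7 and 14 reads, and the muscle form Cox7a1 had 4 and 1.

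The other isoform pairs had too few reads in either form for a ratio. Cox6b1 had 8 and 5 reads and the testis form Cox6b2 had more over both libraries, 6 and 11. Cox7b had 8 and 10 reads. Ndufa4, a subunit first placed in complex I, had 0 and 5 reads, and its relative Ndufa4l2 had more, 6 and 11. Cox7b2 and Cox8c would match the rule but were not among the gene symbols of the count tables. Cox5a and Cox5b, which encode different subunits, had 1 and 16 reads and 11 and 12 reads. Per length, Cox8a at 8.66 and 9.57 RPKM, RPM divided by the transcript length in kilobases, lay above Cox6c, at 5.26 and 6.43 RPKM.

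Complex V, the ATP synthase, had 737 and 1126 reads over 17 genes and the lowest pooled log2 ratio of the 5 complexes, 0.17 (0.036 to 0.31). This ratio was below 0 with every other scale tried, at -0.16 with TMM, -0.087 with DESeq2 size factors and -0.14 without the 11 abundant RNAs. Of its 15 genes with a ratio, 2 were above 1.4-fold and 3 were below 1/1.4-fold. This is 13.3% and 20%, against 41.1% and 11.5% of all gene symbols. The median log2 ratio of the 15 genes was -0.06. The difference between complex V and the other complexes was not tested, and its 95% interval overlapped that of each of the other 4.

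The catalytic head of the enzyme, F1, was at nearly the same level in both isolates. Its 5 genes had 341 reads or 47.3 RPM in 3xFNLDD against 464 reads or 47.5 RPM in 3xFN-Tel-TAL, a pooled log2 ratio of 0.0045 (-0.20 to 0.21), and -0.32 (-0.53 to -0.12) with TMM. Atp5b, the catalytic beta subunit, had 136 and 220 reads, at 0.25 (-0.061 to 0.57). Atp5a1, the alpha subunit, had 104 and 135 reads, 14.4 and 13.8 RPM, at -0.06 (-0.44 to 0.32). Atp5d, the delta subunit of the central stalk, was lower in 3xFN-Tel-TAL, with 53 reads or 7.35 RPM against 44 reads or 4.5 RPM, a log2 ratio of -0.71 (-1.32 to -0.10). Atp5c1 and Atp5e, the gamma and epsilon subunits of the same stalk, were at -0.10 and 0.15 with intervals that included 0.

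The rotating ring of the membrane part is made of identical c subunits that are encoded by 3 genes with the same mature protein. Atp5g1 had more reads than any other member, 193 in 3xFNLDD against 366 in 3xFN-Tel-TAL, at 26.8 and 37.4 RPM and a log2 ratio of 0.48 (0.23 to 0.74). Its gene lies on the reverse strand at chr11:95930166-95936984 (NCBIM37). Atp5g3 had 24 and 31 reads, at -0.07 (-0.89 to 0.76), and Atp5g2 had 22 and 21, at -0.51 (-1.44 to 0.42). The pooled ratio of the ring genes, 0.37 (0.13 to 0.60), came from Atp5g1, since their median was -0.07. Most reads of Atp5g1 lay on the transcript ENSMUST00000090541, which is 4715 nt long and had 171 and 304 reads, at 0.39 (0.12 to 0.67). ENSMUST00000178611, which has no length in the annotation used, had 21 and 60 reads, at 1.07 (0.34 to 1.87). The 596-nt and 691-nt transcripts had 1 and 2 reads in all. Without Atp5g1 the pooled log2 ratio of complex V was 0.043 (-0.12 to 0.20).

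The peripheral stalk and the other membrane subunits of complex V spread widely around 0. Atp5h, the d subunit of the stalk, had 14 and 42 reads and a log2 ratio of 1.15 (0.24 to 2.13). Atp5o, the OSCP subunit that joins the same stalk to F1, had 19 and 12 reads and a log2 ratio of -1.10 (-2.28 to 0.01). These are the highest and the lowest ratios of the complex. Atp5j, coupling factor 6 of the stalk, had 38 and 70 reads, at 0.44 (-0.15 to 1.05), and Atp5l 6 and 15 reads, at 0.88 (-0.57 to 2.54). Per length, Atp5b at 12.6 and 15.1 RPKM and Atp5j at 7.95 and 10.5 RPKM were among the higher members of the complex.

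**Figure D3:**
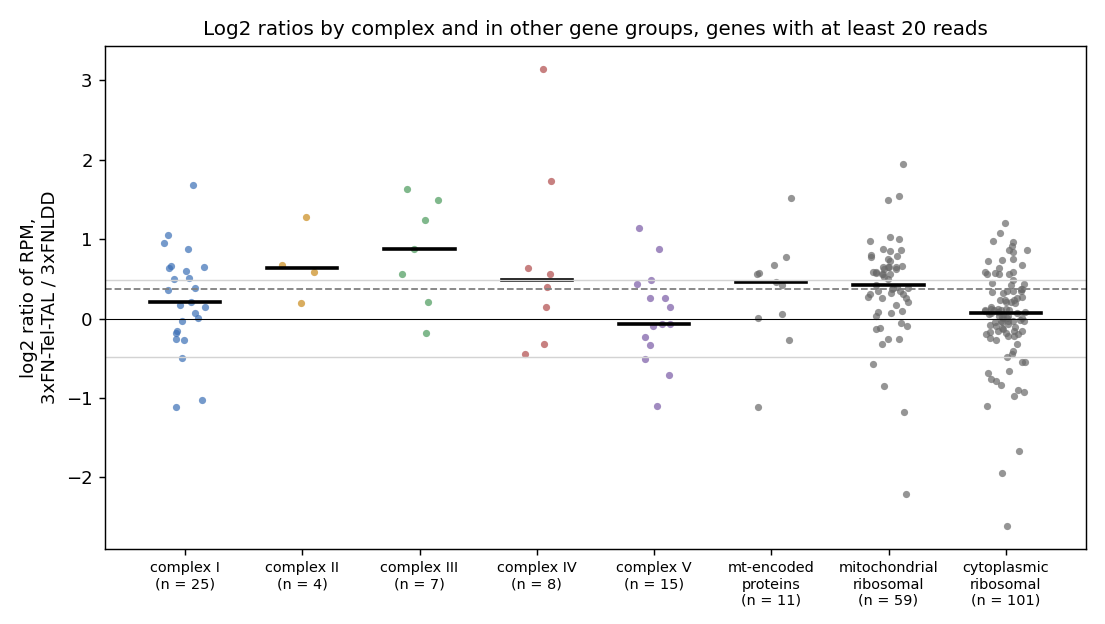
Log2 of the RPM ratio, 3xFN-Tel-TAL over 3xFNLDD (vertical axis, library totals as the scale) for the genes of each complex and of 3 other groups that had at least 20 reads, 1 point per gene, with the median as a black bar. The dashed line is the median of all gene symbols (0.37) and the pale lines are 1.4-fold in either direction. The medians of complexes II (0.63), III (0.88) and IV (0.48) lie above the dashed line and that of complex V (-0.06) below 0, and with TMM the medians of complex I and of the cytoplasmic ribosomal genes also fall below 0.

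A count that can be shared with another copy of the gene is uncertain, and 19 members have a copy of at least 95% identity over at least 50% of a transcript in the annotation. For 10 of them a copy was also listed with its own reads. Atp5g2 had the most, since Gm10175 and Gm10231, both 100% identical to it where aligned, had 23 and 42 reads. Together with them Atp5g2 had 45 and 63 reads and a log2 ratio of 0.046 (-0.53 to 0.63) in place of -0.51. Atp5h with Gm10250 and Gm4953 had 21 and 68 reads and a log2 ratio of 1.26 (0.53 to 2.04), close to that of Atp5h alone. Atp5g1 with Gm10039 was at 0.44 (0.19 to 0.69). Of the ratios discussed above, those of Cox7c and Atp5g2 moved the most with their copies. Cox5b was at -0.31 alone and -0.53 with Gm11273, and Atp5l at 0.88 alone and 0.48 with its copies. For Cox7c, Atp5g2, Cox5b and Atp5l alike, the ratio with copies stayed inside the interval of the gene alone.

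Exons of 18 members overlap exons of another gene, and in all 18 cases such a gene lies on the opposite strand. The library kit did not mark the strand, so reads in the shared exons cannot be assigned. Atp5f1, the b subunit of the ATP synthase stalk, overlaps Wdr77 over 337 of the 1604 nt of its transcript ENSMUST00000118209, and the overlapping Wdr77 transcript had 234 reads in all. Atp5j overlaps Gabpa, whose product is a transcription factor of mitochondrial genes, over 123 nt. Ndufa13 overlaps Tssk6 over 30.2% of its main transcript.

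Many reads of the members came from transcripts that keep an intron. The annotation gives a type to 214 of the 222 listed member transcripts, and 53 of them are of the retained-intron type. These held 277 reads in 3xFNLDD, 14.8% of the typed reads (95% interval 13.2 to 16.5), and 540 reads in 3xFN-Tel-TAL, 17.2% (15.9 to 18.6). Over all protein-coding genes the shares were 9.3% and 9.94%. The cytoplasmic ribosomal protein genes were at 15.7% and 18.7% and the mitochondrial ones at 21.5% and 22.4%, so such shares were not particular to the members. The pooled log2 ratio was 0.52 (0.31 to 0.74) for retained-intron transcripts of the members and 0.24 (0.15 to 0.34) for their protein-coding transcripts. These intervals overlap, and with the TMM shift of -0.33 the latter ratio falls below 0. Over all protein-coding genes the corresponding log2 ratios were 0.30 and 0.19. For the cytoplasmic ribosomal protein genes they were 0.38 and 0.037, and for the mitochondrial ones 0.42 and 0.42.

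The members with the most reads on retained introns were examined after their values were seen. In Cox6c, 82.5% of all reads lay on ENSMUST00000127999, a retained-intron transcript of 3038 nt with 42 and 99 reads, while the protein-coding transcript had 9 and 9. Most reads behind the log2 ratio of Cox6c were thus counted on this transcript. In Ndufb7 the share was 82.4%, on the 4435-nt transcript ENSMUST00000127162, with 33 and 79 reads. Its protein-coding transcript had 6 and 18 reads.

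In some genes the kinds of transcript pointed in different directions. For Ndufs7 the retained-intron reads were 27 and 32, at -0.19 (-0.98 to 0.60), and the protein-coding reads 9 and 16, at 0.39 (-0.87 to 1.75). For Ndufb2 the retained-intron reads were 36 and 30, a log2 ratio of -0.70 (-1.45 to 0.04), and the protein-coding reads 22 and 47, at 0.66 (-0.10 to 1.46). The near-equal total of Ndufb2 was the sum of both. For Atp5f1 the retained-intron reads were 8 and 27, at 1.32 (0.14 to 2.66), and the protein-coding reads 21 and 20, at -0.51 (-1.47 to 0.44). In each of these genes the intervals of the summed kinds overlapped. The Sdhb intervals given with complex II are of single transcripts, and such intervals also lay apart in Ndufs7 and Ndufab1. In Ndufs7, the retained-intron transcripts ENSMUST00000155523 and ENSMUST00000155336 were at -1.52 (-2.85 to -0.30) and 1.33 (-0.17 to 3.12). In Ndufab1, the protein-coding transcripts ENSMUST00000033157 and ENSMUST00000123296 were at 0.92 (0.27 to 1.61) and -0.53 (-1.14 to 0.08). In Atp5b the ratios of the kinds were close, with 0.27 for retained introns and 0.26 for protein-coding transcripts.

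**Figure D4:**
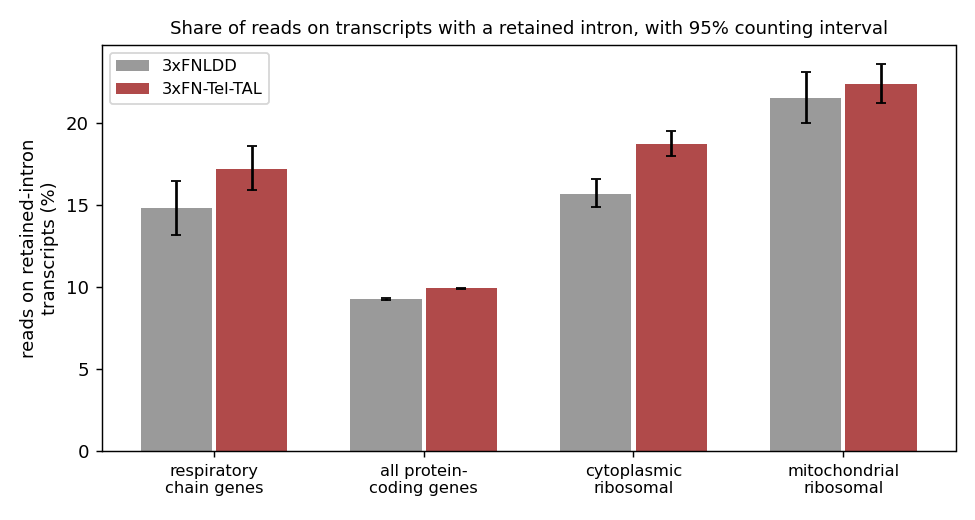
Share of reads on transcripts of the retained-intron type, in percent of reads on typed transcripts (vertical axis), for the respiratory chain genes, all protein-coding genes and both groups of ribosomal protein genes in 3xFNLDD (grey) and 3xFN-Tel-TAL (red). Bars start at 0 and error bars are exact 95% counting intervals. The respiratory chain genes, at 14.8% and 17.2%, lie between all protein-coding genes, at 9.3% and 9.94%, and the mitochondrial ribosomal protein genes, at 21.5% and 22.4%. The cytoplasmic ribosomal protein genes are at 15.7% and 18.7%.

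Since telomeres lie at chromosome ends, the distance of each gene to the distal end of its chromosome (NCBIM37) was set beside its ratio. Of the 59 members with a ratio, 7 lay within 10 Mb of the distal end, and 1 of them was above 1.4-fold. These 7 were Atp5g2, Atp5b, Atp5o, Atp5h and Atp5e of complex V, Ndufs4 and Cox4i1, and their median log2 ratio was 0.25. The other 52 had a median of 0.31, and 23 of them, or 44.2%, were above 1.4-fold. Distance to the other chromosome end was not used. Genes near that end, such as Ndufv1, Uqcr10, Cox8a and Atp5c1, were thus counted as farther away. Among all gene symbols, 42% of 1244 near the end and 41.4% of 10803 farther away were above 1.4-fold. The member nearest to an end was Atp5g2, 0.993 Mb from the end of chromosome 15, with a log2 ratio of -0.51, followed by Atp5b, 2.47 Mb from the end of chromosome 10, at 0.25. Cox7c and Cox7a2l, the members with the highest ratios, lay 34.1 Mb and 11.4 Mb from the end.

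The mitochondrial genome encodes the remaining subunits of the same complexes. Its 13 protein genes had 637 and 1106 reads and a pooled log2 ratio of 0.36 (0.21 to 0.50), which overlaps the interval of 0.23 to 0.40 for the nuclear members. Of the 11 with a ratio, 5 (45.5%) were above 1.4-fold and 1 (9.09%) below 1/1.4-fold, against 41.1% and 11.5% of all gene symbols. mt-Co1, a catalytic subunit of complex IV, had 191 and 346 reads and a log2 ratio of 0.42 (0.16 to 0.68). mt-Nd4l of complex I was highest, at 1.52 with 10 and 39 reads, and mt-Atp8 of complex V lowest, at -1.12 with 16 and 10. The mitochondrial ribosomal RNAs were lower in 3xFN-Tel-TAL, mt-Rnr2 at -0.61 (-0.65 to -0.57) and mt-Rnr1 at -0.20 (-0.26 to -0.15).

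Ribosomal protein genes, like the members, encode subunits of large complexes that nearly all cells use. The 77 mitochondrial ribosomal protein genes had a pooled log2 ratio of 0.36 (0.29 to 0.43). The 59 of them with enough reads had a median of 0.42, and 49.2% were above 1.4-fold. Taken by name alone, the cytoplasmic group holds symbols that start with Rpl or Rps followed by a digit. It includes pseudogenes and can include genes of proteins outside the ribosome. The retained-intron shares used only its protein-coding genes. These 209 gene symbols had a pooled log2 ratio of 0.12 (0.073 to 0.16). The 101 of them with enough reads had a median of 0.067, with 18.8% above 1.4-fold and 14.9% below 1/1.4-fold. By the pooled intervals the respiratory chain genes, at 0.23 to 0.40, overlapped the mitochondrial ribosomal protein genes and lay above the cytoplasmic group. With TMM these pooled ratios were -0.012, 0.032 and -0.21.

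Electron carriers outside the rule and the assembly factors are given by lists of the pathway. Of the carriers and their relatives, 7 of 9 had a ratio. Above 1.4-fold were 3 (42.9%) and below 1/1.4-fold none, against 41.1% and 11.5% of all gene symbols. Cycs, cytochrome c, had 36 and 77 reads and a log2 ratio of 0.66 (0.068 to 1.27), and Cyc1, the cytochrome c1 of complex III, 52 and 77 reads and 0.13 (-0.40 to 0.66). Etfdh, which feeds electrons from fatty acid oxidation to ubiquinone, had the most reads, 425 and 800, at 0.47 (0.30 to 0.65). Atpif1, the inhibitor of the ATP synthase, was at -0.02 with 39 and 52 reads.

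Of the assembly factors without a member's name, 27 of 32 listed genes had a ratio, with a median log2 ratio of 0.18. Above 1.4-fold were 8 (29.6%) and below 1/1.4-fold 2 (7.41%), against 41.1% and 11.5% of all gene symbols. Pooled, the 32 listed assembly factors were at 0.30 (0.22 to 0.39), or at -0.024 by TMM. For complex IV, Coa5 had 61 and 234 reads and a log2 ratio of 1.4998 (1.09 to 1.93), and Cox10, which makes a precursor of the heme of this complex, had 15 and 64 reads and was at 1.65 (0.83 to 2.57). Cox18, Cox16 and Cox19, which act on the same complex, were at -0.62, -0.49 and -0.44. Acad9, a complex I assembly factor, had the most reads, 606 and 891, and a log2 ratio of 0.12 (-0.034 to 0.27).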

How the data were processed

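RNA in anti-FLAG isolates was measured in 1 library of 3xFNLDD and 1 of 3xFN-Tel-TAL, assigned to groups by their titles. The authors deposited a raw read count for each of 48876 Ensembl transcripts, with library totals of 7206183 and 9774844 reads. They also deposited RPM, each count scaled to the library's total, and recomputed values differed by at most 4.8e-05. The submitters' processing notes name cutadapt and GRCm38 (mm10). The aligner, the counting program, the annotation release and how multi-mapping reads were counted are not given in the sources used here.

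Counts were summed per gene symbol, leaving out 2 prefixes of clone names. Log2 ratios of RPM with exact Clopper-Pearson 95% intervals were computed for symbols with 20 or more reads over both libraries, without a pseudocount. With 1 library per condition no test was run. Python 3.11.15, numpy 2.4.6, pandas 2.3.3, scipy 1.17.1 and matplotlib 3.10.9 were used. The procedure was tested on simulated data. Positions, transcript types, lengths and sequences came from GENCODE M1 (NCBIM37), which holds 45887 of the listed transcripts. The annotation build thus differs from that of the submitters, and transcripts were matched by identifier. RPKM leaves out transcripts without a length, which lowers it for Atp5g1, Cox4i1 and Cox6b2. Near-identical copies were sought with BLAST 2.17.0+.

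The members and lists were chosen with earlier results of these data known. The genes named are, in each complex, the 4 with the most reads, the 2 highest and 2 lowest ratios, every member past 2-fold in either direction, and the paralog groups. Other genes were named after their values were seen. The single values of 1 member are not reported here. Alternatives were TMM (edgeR 4.0.16 in R 4.3.3), DESeq2 1.42.0 size factors, totals without RNAs above 1% of a library, other read minimums, added reads, a ratio of 2, the interval bound, 1 transcript per symbol and structural subunits only.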

Additional observations from a re-analysis of the deposited data

How the results depend on the processing

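Of 87 alternative values of the main results, 10 reversed and 21 moved. The other 56 kept their direction and stayed within the tolerance, which is 1.5 times for a count and the 95% counting interval for a pooled log2 ratio, with the width of that of all members for the median. Complex V, at 0.17, was so counted at 0.077 with protein-coding transcripts only and at 0.043 without Atp5g1. With TMM, DESeq2 size factors and totals without RNAs above 1%, in this order, the median log2 ratio of the members was -0.0701, -0.0022 and -0.059. Members above 1.4-fold numbered 13, 13 and 13, and members below 1/1.4-fold 14, 11 and 14. The pooled log2 ratio was -0.012, 0.056 and -0.0015 for all members, -0.019, 0.049 and -0.0078 for complex I, 0.14, 0.21 and 0.15 for complex IV, and -0.16, -0.087 and -0.14 for complex V. These scales shift every log2 ratio by the same amount, which is the cause of each reversal. For complexes II and III no alternative changed the direction of the pooled ratio. With at least 100 reads the median was 0.42, with 4 members above and 0 below. A ratio past 2 left 9 above and 3 below, and the 95% bound past 1.4 left 3 above and 0 below. Members below 1/1.4-fold numbered 10 with at least 10 reads, 16 with no minimum and 0.5 reads added, and 10 with 1 transcript per symbol. Protein-coding transcripts only, and each complex without its most read member, were chosen after seeing the data. No symbol containing -ps was among the matches, so including such symbols gave no other value. No paired analysis was possible because neither condition has a second library, and no library could be left out. Depth limits most single genes, since the median member had 32 reads.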

Other observations

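Neighbouring mitochondrial pathways outside the respiratory chain gave the following values, by library totals and with intervals for counting error only. All 17 listed genes of the TCA cycle and pyruvate dehydrogenase had enough reads for a ratio. Above 1.4-fold were 7 (41.2%) and below 1/1.4-fold 1 (5.88%), against 41.1% and 11.5% of all gene symbols. The pooled log2 ratio of the 17 genes was 0.35 (95% interval 0.23 to 0.48), or 0.024 with TMM. Idh3a and Idh3g, subunits of the NAD-dependent isocitrate dehydrogenase, had 26 and 75 reads and 8 and 32 reads, at log2 ratios of 1.09 (0.43 to 1.79) and 1.56 (0.41 to 2.89), whereas the third subunit, Idh3b, with 85 and 132 reads, was at 0.20 (-0.21 to 0.61). Suclg1, a succinyl-CoA ligase subunit, was at 0.93 with 38 and 98 reads, and its partner Suclg2 at -0.61 (-1.68 to 0.45) with 18 and 16.

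Among 21 genes of protein import and folding in mitochondria, 17 had a ratio. Above 1.4-fold were 8 (47.1%) and below 1/1.4-fold none, against 41.1% and 11.5% of all gene symbols. The pooled log2 ratio of the 21 genes was 0.54 (0.41 to 0.66), and 0.21 (0.085 to 0.33) with TMM. Hspd1, the matrix chaperonin, had 37 and 119 reads and a log2 ratio of 1.25 (0.70 to 1.82). Timm44, which links the inner membrane channel to the import motor, had 53 and 161 reads, at 1.16 (0.71 to 1.64).

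Of 13 regulators of mitochondrial genes, 11 had a ratio. Above 1.4-fold were 6 (54.5%) and below 1/1.4-fold none, against 41.1% and 11.5% of all gene symbols. The pooled log2 ratio of the 13 regulators was 0.61 (0.50 to 0.73), and 0.29 (0.17 to 0.40) with TMM. Pprc1, a relative of the coactivator PGC-1, had 212 and 555 reads and a log2 ratio of 0.95 (0.72 to 1.18). Gabpb1, a partner of the transcription factor Gabpa, had 15 and 59 reads, at 1.54 (0.70 to 2.46), while Polrmt, the mitochondrial RNA polymerase, had 37 and 37, at -0.44 (-1.14 to 0.26). Differences between these lists and the respiratory chain genes were not tested.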
